A study of Homo sapiens with 15 samples.

Results

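The genes described here are the factors that start and extend protein chains on the ribosome. They were chosen by name, as every protein-coding gene of the array annotation whose symbol begins EIF (eukaryotic initiation factor) or EEF (eukaryotic elongation factor) followed by a digit, with EIF1AY left out. Symbols were matched without a measured value, but the rule was chosen with earlier results of these data known. Of the 14812 genes tested, 34 met the rule. RefSeq lists 69 protein-coding symbols of this form. The other 35, among them all subunits of eIF2, eIF2B and eIF3 and the scaffold proteins of eIF4F, were not named by a feature of the array and were not analysed here. EEF1AKMT4-ECE2, a read-through gene that joins a methyltransferase to an endothelin-converting enzyme, met the rule by its name and was kept. All 15 arrays came from MV4-11, an established acute myeloid leukemia line with a KMT2A-AFF1 fusion and a FLT3 duplication that keeps this receptor active. The cells were kept for 24 h with the vehicle DMSO, with DW71177 at 300 nM, with DW71374 at 300 nM, with OTX015 at 300 nM or with RVX208 at 5 uM, and each of these 5 groups held 3 arrays. The BET proteins read acetylated lysine through paired bromodomains. OTX015, also called birabresib, occupies both domains, RVX208 (apabetalone) has a preference for the second one, and DW71177 and DW71374 go by code names only. The labels describe triplicate wells without saying whether they were separate cultures, so each p-value reflects no more than the spread among arrays, part or all of which can be technical.

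Initiation begins when eIF2 delivers the initiator tRNA to the small ribosomal subunit and the cap-binding complex eIF4F brings the mRNA. Proteins of the 4E-BP family hold eIF4E away from eIF4F until the kinase complex mTORC1 phosphorylates them, and 4 kinases stop delivery by phosphorylating eIF2 under stress. Once the subunits have joined, eEF1A brings each aminoacyl-tRNA and eEF2 moves the ribosome along, a step that the kinase eEF2K slows. In leukemia cells the factors are known as a point where growth signalling sets the rate of protein synthesis.

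Values are log2 signals of the array as deposited, differences are between group means on that scale with the standard error of a limma fit, and a gene was called changed at a Benjamini-Hochberg adjusted p under 0.05 over all 14812 genes. Array medians lay between 3.72 and 3.79, and the correlation across genes between replicates was 0.992 to 0.995. Of 11 markers of a myeloid leukemia line 8 were measured, and FLT3 held group means of 9.72 to 9.87, whereas ANPEP was dim at 3.78 to 3.88. Their summed signal, as a log2 value, was 11.81 to 11.87 in DMSO, 11.75 to 11.85 with DW71374, 11.42 to 11.47 with RVX208, 11.22 to 11.27 with DW71177 and 11.31 to 11.32 with OTX015. LYZ, the brightest of them, fell from 11.11 to 10.08 with OTX015, whereas MEIS1 rose from 6.78 to 7.36 with OTX015 and 7.26 with DW71177. Of these 8 markers 5 were called with OTX015, 4 with DW71177, 3 with RVX208 and 0 with DW71374, and ANPEP, CD4 and FLT3 were called with none. Of 8 lymphoid markers only NKG7 was measured, at 7.42 to 7.54 in DMSO and 6.15 to 6.46 with OTX015. Of 7 erythroid and megakaryocytic markers only PF4 was measured, at 5.82 to 6.01 in DMSO and 5.37 to 5.69 with OTX015. Of 9 epithelial and stromal markers 5 were measured, with summed signals of 8.35 to 8.62 over all arrays and EPCAM at group means of 2.64 to 2.81, and 1 was called, VIM with OTX015 (6.31 to 6.47). The summed myeloid signal and NKG7 were lower with the 3 compounds that moved the translation factors, and their part in the results was not tested. In RNA from a whole culture, fewer cells of a type and less RNA per cell cannot be told apart. A normalization between arrays is not stated, and if one was made, as the near-equal medians would allow, each difference is measured against the whole array.

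The translation factors are bright and tightly measured. Their means over the 15 arrays ran from 4.02 for EIF4E3 to 12.2 for EEF2, with a median of 6.87 against 4.74 for all genes. Their SD within groups ran from 0.0185 for EEF2 to 0.230 for EIF4E3, with a median of 0.0876 against 0.124 for all genes. EEF1AKMT1, EEF1AKMT4-ECE2, EIF4E3 and EIF5AL1 had a mean under 5, and folds of genes or groups at such a level are at best lower bounds.

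With OTX015, 20 of the 34 genes changed against DMSO, 7 upward and 13 downward. Over all genes tested, 25.7% were called in this comparison, 11.2% higher and 14.5% lower. The median difference of the 34 genes was -0.12, against -0.0038 for all genes. Bright genes are called more often on this array. Among the genes with a mean of at least 5, fitted on their own, 56.1% were called, beside 19 of the 30 translation factors there (63.3%), so the share of called translation factors was near that of genes of similar brightness. With DW71177, 16 of the 34 changed, 6 upward and 10 downward, where 19.8% of all genes were called (9.95% higher and 9.88% lower). Their median was -0.08, and among the brighter genes the shares were 53.3% of the translation factors and 48.2% of all. Fitted on the 6 arrays of DW71177 and DMSO alone, the count was 10, where 15% of all genes were called. With RVX208, 5 of the 34 changed, 2 upward and 3 downward, where 6.52% of all genes were called (3.41% higher and 3.11% lower) and the median was -0.03. That background was 3.81% to 4.29% with any 1 of the 6 arrays left out and 4.11% on these arrays alone. The RVX208 count was 3 without RVX208 array 3 and 2 on its 6 arrays alone. It was 10 with a trended variance and 10 of 30 among the brighter genes (33.3%), of which 23.4% were called. With DW71374 the count was 0 of 34, as it was over all genes (0%).

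**Figure D1:**
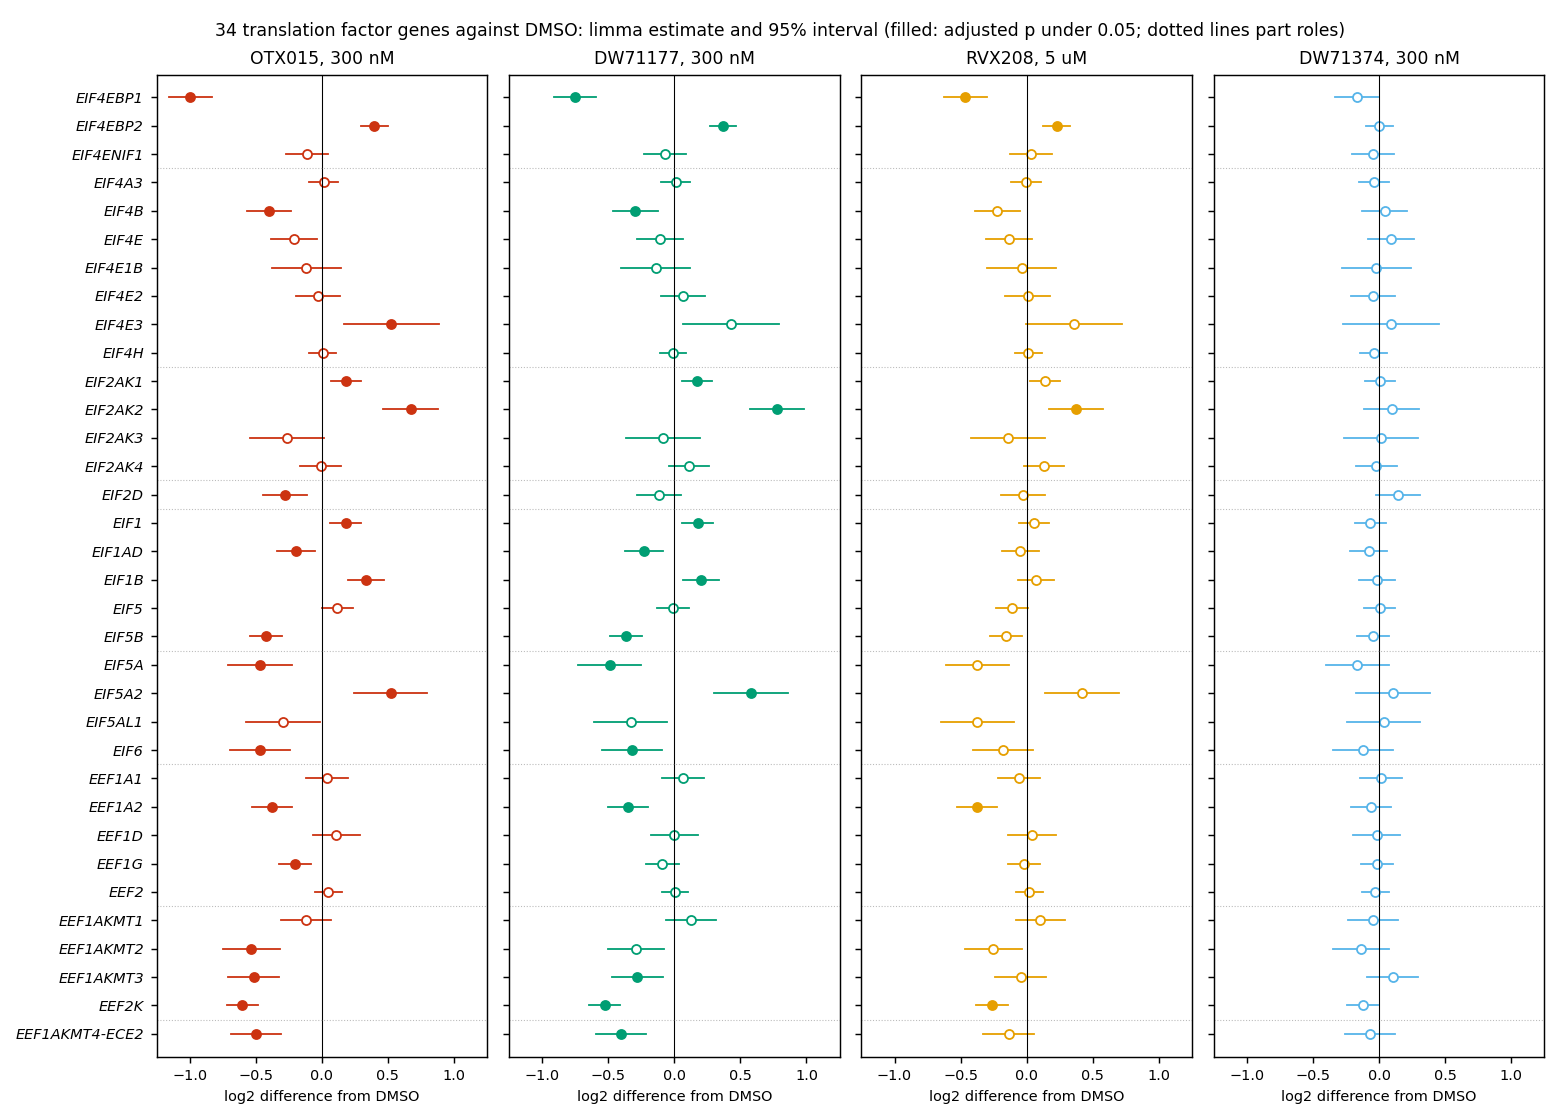
Log2 difference of each of the 34 translation factor genes from DMSO (horizontal axis) for OTX015, DW71177, RVX208 and DW71374, with the limma estimate as a point and its 95% interval as a line; filled points passed an adjusted p of 0.05 and dotted lines part the roles. EIF4EBP1 lay farthest to the left with OTX015 at -0.99 and EIF2AK2 farthest to the right with DW71177 at 0.78, and no point is filled for DW71374.

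The starts of these genes were read for the E-box CACGTG, the palindrome that MYC and related factors recognise, which reads the same on both strands. A RefSeq window of 250 bases before to 50 bases after the start (GRCh38.p14) was matched for 28 of the 34 genes. The others were EEF1A2, EEF1AKMT1, EEF1AKMT3, EEF1D, EIF2AK1 and EIF4EBP1. Some genes have several windows, and a gene was counted if any of its windows held the motif. The E-box stood in a window of 9 of the 28 genes (32.1%) and of 11% of the 10736 tested genes with a window. Counted by window and not by gene, it stood in 7.26% of all 35116 windows. The 9 genes were EEF1AKMT4-ECE2, EEF2K, EIF1B, EIF2AK2, EIF4A3, EIF4B, EIF4E, EIF4H and EIF5A2. With OTX015, 3 of them rose, 3 fell and 3 did not pass the test, beside 3, 7 and 9 of the 19 genes with a window and no E-box. A match is a description of letters, not a binding site or a cause. Stretches of 30 bases around the motif, 5′ to 3′ on the gene's strand with the E-box in capitals, show that genes moving in opposite directions hold the same letters. EIF4B fell with OTX015, EIF1B and EIF5A2 rose, and EIF4E, EIF4A3 and EIF4H did not pass the test. The core of the amino acid response element is TGATG followed by any base, AA and any base, on either strand. It stood in a window of 1 of the 28 genes, EIF4E3 (3.57%), and of 3.2% of the tested genes with a window.
EIF4B, chr12:53006422-53006451, plus strand: gcccgctataatCACGTGattgcctcatcc
EIF1B, chr3:40309641-40309670, plus strand: gcgcgggacggtCACGTGggaggggccgcg
EIF5A2, chr3:170908807-170908836, minus strand: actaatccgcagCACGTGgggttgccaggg
EIF5A2, chr3:170908782-170908811, minus strand: cagggcgctcttCACGTGactgggcggagc
EIF4E, chr4:98929341-98929370, minus strand: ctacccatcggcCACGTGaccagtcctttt
EIF4E, chr4:98929188-98929217, minus strand: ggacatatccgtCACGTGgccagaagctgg
EIF4A3, chr17:80147232-80147261, minus strand: ccagttccctttCACGTGacgaagagtgcc
EIF4H, chr7:74174145-74174174, plus strand: acgccgccgcacCACGTGggctgcagagcg

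The inhibitors that bind eIF4E moved in opposite directions. EIF4EBP1, the 4E-BP that mTORC1 is best known to phosphorylate, had the largest fall of the 34 genes with OTX015, and its close relative EIF4EBP2 rose. EIF4EBP1 read 8.53, 8.59 and 8.62 in DMSO, 8.36, 8.51 and 8.36 with DW71374, 8.26, 8.05 and 8.05 with RVX208, 7.85, 7.84 and 7.81 with DW71177, and 7.54, 7.71 and 7.52 with OTX015. The 5 groups did not overlap one another on this gene, with DMSO highest and OTX015 lowest. It fell by 0.99 ± 0.075 with OTX015 (1.99-fold, limma adjusted p = 3.3e-07), by 0.75 with DW71177 (1.68-fold, limma adjusted p = 8.5e-06) and by 0.46 with RVX208 (1.38-fold, limma adjusted p = 0.0019). EIF4EBP2 read 10.52, 10.54 and 10.54 in DMSO, the same at this rounding with DW71374, 10.75, 10.73 and 10.79 with RVX208, 10.90, 10.88 and 10.91 with DW71177, and 10.96, 10.93 and 10.89 with OTX015. The arrays of RVX208, DW71177 and OTX015 all lay above the DMSO arrays, and those of DW71177 and OTX015 overlapped. The rises were 0.40 ± 0.047 with OTX015 (1.32-fold, limma adjusted p = 2e-05), 0.37 with DW71177 (limma adjusted p = 6.5e-05) and 0.23 with RVX208 (limma adjusted p = 0.011). EIF4ENIF1, which carries eIF4E into the nucleus, differed by -0.11 with OTX015 and did not pass the test with any compound.

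**Figure D2:**
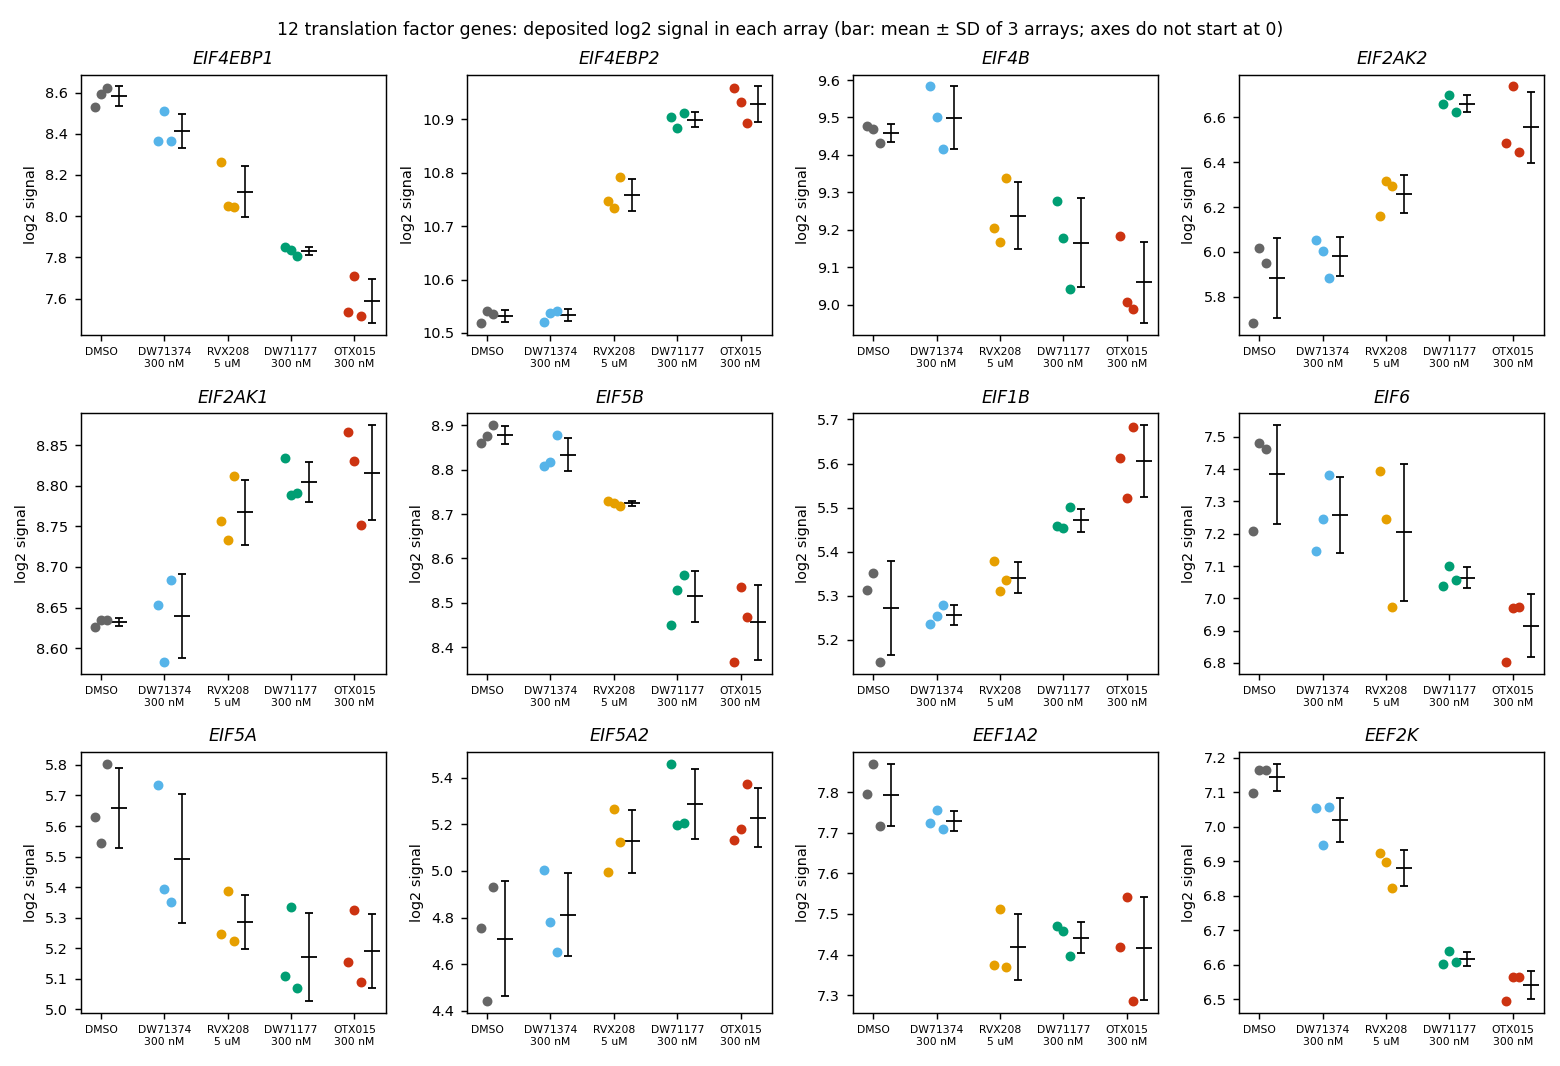
Log2 signal (vertical axis) of 12 translation factor genes in each array, by group, with the mean of 3 arrays and its SD. EIF4EBP1 stepped down from 8.58 in DMSO to 7.59 with OTX015 while EIF4EBP2 stepped up from 10.53 to 10.93, with RVX208 between them and DW71374 beside DMSO on EIF4EBP2.

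Of the 7 measured genes of eIF4F and its helpers, EIF4B fell and EIF4E3 rose with OTX015, EIF4B fell with DW71177, and none passed with RVX208. EIF4B stimulates the RNA helicase of eIF4F. It read 9.48, 9.47 and 9.43 in DMSO, 9.58, 9.50 and 9.42 with DW71374, 9.21, 9.17 and 9.34 with RVX208, 9.28, 9.18 and 9.04 with DW71177, and 9.18, 9.01 and 8.99 with OTX015. Every array of OTX015, DW71177 and RVX208 lay below every DMSO array. The fall was 0.40 ± 0.078 with OTX015 (limma adjusted p = 0.0014) and 0.29 with DW71177 (limma adjusted p = 0.015), the latter not called without DW71177 array 3 (limma adjusted p = 0.072), and with RVX208 the difference of -0.22 did not pass (limma adjusted p = 0.12). The dimmer of its 2 features differed by -0.47, -0.26 and -0.13 in these comparisons. EIF4E3, a form of the cap-binding protein, was the dimmest of the 34 genes and read 3.89, 3.80 and 3.52 in DMSO, 3.79, 3.88 and 3.80 with DW71374, 3.97, 4.26 and 4.05 with RVX208, 4.64, 3.77 and 4.08 with DW71177, and 4.36, 4.16 and 4.26 with OTX015. Its OTX015 arrays lay above all DMSO arrays, and its DW71177 arrays overlapped them, with 0.43 ± 0.17 as the difference (limma adjusted p = 0.098, but 0.012 without DW71177 array 2 and 0.048 with array weights). The rise of 0.53 ± 0.17 with OTX015 (limma adjusted p = 0.033) was not called without DMSO array 2 or 3 or without OTX015 array 1 or 3 (limma adjusted p up to 0.14). EIF4E, which encodes the cap-binding subunit, differed by -0.21 ± 0.080 with OTX015, all 3 arrays below DMSO, and did not pass (limma adjusted p = 0.073), except without OTX015 array 3 (limma adjusted p = 0.023) or with only genes of mean at least 5 tested (limma adjusted p = 0.025). EIF4A3, the helicase of the exon junction complex, EIF4H, a helper related in function to EIF4B, and EIF4E2, a cap-binding repressor, differed by 0.03 or less in size with OTX015. EIF4E1B, the oocyte form, differed by -0.12.

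Among the 4 kinases that phosphorylate eIF2, EIF2AK2 and EIF2AK1 rose with OTX015 and DW71177, and EIF2AK2 also with RVX208. EIF2AK2 encodes PKR, which double-stranded RNA activates and interferon induces, and of the 34 genes it rose most with OTX015 and DW71177. It read 5.68, 6.02 and 5.95 in DMSO, 6.05, 6.00 and 5.88 with DW71374, 6.16, 6.32 and 6.30 with RVX208, 6.66, 6.70 and 6.62 with DW71177, and 6.48, 6.74 and 6.45 with OTX015. All arrays of RVX208, DW71177 and OTX015 were above the DMSO arrays, with RVX208 lowest of the 3 groups. It rose by 0.67 ± 0.096 with OTX015 (1.59-fold, limma adjusted p = 0.00011), by 0.78 with DW71177 (1.71-fold, limma adjusted p = 5.2e-05) and by 0.37 with RVX208 (1.30-fold, limma adjusted p = 0.033). The call with RVX208 was lost without DMSO array 1 or 3 or without RVX208 array 2 or 3 (limma adjusted p up to 0.13). Its window held both the E-box and the core of the interferon-stimulated response element, GAAA followed by any 2 bases and GAAA. That core was searched on both strands and added to the motifs after values had been seen. It stood in a window of 2 of the 28 genes (7.14%, EIF2AK2 and EIF6) and of 3.89% of the tested genes with a window. The stretch from 250 bases before the start to 10 bases after it follows, with both motifs in capitals.
EIF2AK2, chr2:37156971-37157230, minus strand: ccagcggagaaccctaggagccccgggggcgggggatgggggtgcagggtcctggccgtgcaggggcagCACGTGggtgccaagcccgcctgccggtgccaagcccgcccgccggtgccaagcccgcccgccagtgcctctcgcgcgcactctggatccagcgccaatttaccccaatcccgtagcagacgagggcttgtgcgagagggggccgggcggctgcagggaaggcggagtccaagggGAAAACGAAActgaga

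EIF2AK1, the heme-regulated kinase, moved less. It read 8.63, 8.64 and 8.63 in DMSO, 8.65, 8.58 and 8.68 with DW71374, 8.76, 8.73 and 8.81 with RVX208, 8.83, 8.79 and 8.79 with DW71177, and 8.87, 8.83 and 8.75 with OTX015. Groups under RVX208, DW71177 and OTX015 lay above DMSO without overlap. The rise was 0.18 ± 0.053 with OTX015 (limma adjusted p = 0.018) and 0.17 with DW71177 (limma adjusted p = 0.033). It was not called without DMSO array 1 or OTX015 array 1 or 2 (limma adjusted p up to 0.073), nor, for DW71177, whichever of the 6 arrays compared was left out (limma adjusted p 0.056 to 0.094). EIF2AK3 (PERK, the sensor of unfolded protein) differed by -0.26 ± 0.13 with OTX015, its arrays overlapping DMSO, and EIF2AK4 (GCN2, the sensor of amino acid shortage) by -0.01 ± 0.070. Neither passed the test with any compound. EIF2D, which can deliver tRNA to the ribosome without eIF2, fell by 0.28 ± 0.077 with OTX015 (limma adjusted p = 0.015) and was not called without DMSO array 1 or OTX015 array 2 or 3 (limma adjusted p up to 0.060). With DW71177 it differed by -0.11.

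The group of eIF1 and eIF5, which govern scanning, start codon choice and subunit joining, was taken with EIF1AD, placed there by its name. EIF1 and EIF1B rose and EIF5B and EIF1AD fell with both OTX015 and DW71177, and none of the 5 passed with RVX208. EIF5B, the GTPase that joins the subunits, read 8.86, 8.87 and 8.90 in DMSO, 8.81, 8.82 and 8.88 with DW71374, 8.73, 8.72 and 8.72 with RVX208, 8.45, 8.53 and 8.56 with DW71177, and 8.37, 8.53 and 8.47 with OTX015. Its OTX015 and DW71177 arrays overlapped each other and lay below all others. It fell by 0.42 ± 0.057 with OTX015 (1.34-fold, limma adjusted p = 6.1e-05) and by 0.36 with DW71177 (1.29-fold, limma adjusted p = 0.00034). EIF1 keeps the ribosome from starting at poor codons, and EIF1B is its near copy, so a signal shared between their probes cannot be told apart here. EIF1B read 5.31, 5.35 and 5.15 in DMSO, 5.24, 5.25 and 5.28 with DW71374, 5.38, 5.31 and 5.34 with RVX208, 5.46, 5.45 and 5.50 with DW71177, and 5.61, 5.52 and 5.68 with OTX015. The OTX015 arrays were the highest and did not overlap the DW71177 arrays. EIF1B rose by 0.33 ± 0.063 with OTX015 (limma adjusted p = 0.0011) and by 0.20 with DW71177 (limma adjusted p = 0.039), the latter not called without DMSO array 1 or 3 or without DW71177 array 1, 2 or 3 (limma adjusted p up to 0.18). The DW71177 call was also lost with a trended variance or a replicate block. EIF1 read 9.04, 9.05 and 9.04 in DMSO, 8.95, 8.99 and 8.98 with DW71374, 9.13, 9.11 and 9.04 with RVX208, 9.18, 9.32 and 9.15 with DW71177, and 9.23, 9.22 and 9.21 with OTX015. The arrays of both called groups lay above DMSO. Its rise of 0.18 ± 0.054 with OTX015 (limma adjusted p = 0.024) was not called whichever of the 6 arrays compared was left out (limma adjusted p 0.051 to 0.067), and that of 0.18 with DW71177 (limma adjusted p = 0.034) not without DMSO array 1, 2 or 3 or DW71177 array 2 (limma adjusted p up to 0.14). The OTX015 call was also lost with centring on medians. EIF1AD, named for its likeness to eIF1A, read 7.40 in each DMSO array at this rounding, 7.40, 7.38 and 7.18 with DW71374, 7.37, 7.32 and 7.36 with RVX208, 7.14, 7.20 and 7.17 with DW71177, and 7.18, 7.29 and 7.14 with OTX015. One DW71374 array reached down among the OTX015 values. It fell by 0.20 ± 0.066 with OTX015 (limma adjusted p = 0.042) and by 0.23 with DW71177 (limma adjusted p = 0.023). Those calls were lost without DMSO array 1, 2 or 3, without OTX015 array 1 or 3 and without DW71177 array 1 or 3 (limma adjusted p up to 0.14 and 0.070). Both were also lost with quantile normalization. EIF5, which makes eIF2 hydrolyse GTP at the start codon, differed by 0.12 ± 0.056 with OTX015 and did not pass (limma adjusted p = 0.16), except with quantile normalization (0.15, limma adjusted p = 0.047).

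EIF5A and EIF5A2 encode forms of the hypusine-bearing factor that helps ribosomes through difficult stretches such as runs of proline, and they moved in opposite directions. EIF5A read 5.63, 5.54 and 5.80 in DMSO, 5.74, 5.39 and 5.35 with DW71374, 5.24, 5.39 and 5.22 with RVX208, 5.11, 5.33 and 5.07 with DW71177, and 5.16, 5.32 and 5.09 with OTX015. DMSO lay above the 3 groups of RVX208, DW71177 and OTX015, and DW71374 overlapped both. EIF5A fell by 0.47 ± 0.11 with OTX015 (limma adjusted p = 0.0057) and by 0.49 with DW71177 (limma adjusted p = 0.0059), and differed by -0.37 with RVX208 (limma adjusted p = 0.065), called with only genes of mean at least 5, a trended variance or array weights (limma adjusted p 0.02 to 0.042). EIF5A2 read 4.76, 4.44 and 4.93 in DMSO, 5.01, 4.78 and 4.65 with DW71374, 5.00, 5.26 and 5.12 with RVX208, 5.46, 5.20 and 5.21 with DW71177, and 5.13, 5.18 and 5.37 with OTX015. All arrays of those 3 compounds were above DMSO, whose mean of 4.71 is low enough that the fold is a lower bound. It rose by 0.52 ± 0.13 with OTX015 (limma adjusted p = 0.0078) and by 0.58 with DW71177 (limma adjusted p = 0.0052), and differed by 0.42 with RVX208 (limma adjusted p = 0.074, but 0.048 without DMSO array 3, 0.024 with only genes of mean at least 5 and 0.041 with a trended variance). EIF5AL1, a near copy of EIF5A, differed by -0.29, -0.33 and -0.37 with OTX015, DW71177 and RVX208 and passed in none, except with OTX015 when its array 2 was left out (limma adjusted p = 0.029). Probes of such copies can read each other's RNA, so the change of each remains uncertain. EIF6 keeps the large ribosomal subunit from joining too early. It read 7.21, 7.48 and 7.46 in DMSO, 7.15, 7.25 and 7.38 with DW71374, 7.39, 7.24 and 6.97 with RVX208, 7.04, 7.10 and 7.06 with DW71177, and 6.80, 6.97 and 6.97 with OTX015. The DW71177 and OTX015 arrays lay below DMSO, and those of RVX208 and DW71374 overlapped it. EIF6 fell by 0.47 ± 0.11 with OTX015 (limma adjusted p = 0.0041) and by 0.32 with DW71177 (limma adjusted p = 0.049), the latter not called without DMSO array 2 or 3 or without DW71177 array 1, 2 or 3 (limma adjusted p up to 0.16). The DW71177 call was also lost with centring on medians or a replicate block.

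Of the 5 measured elongation factors proper, EEF1A2 and EEF1G fell with OTX015 and EEF1A2 also with DW71177 and RVX208. EEF1A2 is the form of eEF1A known mainly from muscle and neurons. It read 7.79, 7.87 and 7.72 in DMSO, 7.72, 7.76 and 7.71 with DW71374, 7.38, 7.51 and 7.37 with RVX208, 7.47, 7.46 and 7.40 with DW71177, and 7.42, 7.54 and 7.29 with OTX015. The 3 compound groups overlapped one another and lay below DMSO and DW71374. The fall was 0.38 ± 0.071 with OTX015 (limma adjusted p = 0.001), 0.35 with DW71177 (limma adjusted p = 0.0025) and 0.37 with RVX208 (limma adjusted p = 0.0058). EEF1A1, the common form and a close paralogue, differed by 0.04 ± 0.074 with OTX015, and the overlap of their sequences leaves the separation of both signals uncertain. The EEF1A1 feature had a mean of 5.80 over the 15 arrays, below the 7.56 of EEF1A2. How well this feature reads the RNA of the common form was not tested, so its small difference need not hold for that RNA. EEF1G, a subunit of the complex that recharges eEF1A with GTP, fell by 0.21 ± 0.057 with OTX015 (limma adjusted p = 0.014) and was not called without DMSO array 2 or OTX015 array 3 (limma adjusted p up to 0.067). Its dimmer feature differed by -0.12. EEF1D, of the same complex, differed by 0.11 with OTX015, and EEF2, the translocase, by 0.05 ± 0.046, and neither passed with any compound.

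The kinase that inhibits eEF2 fell with all 3 of OTX015, DW71177 and RVX208. EEF2K read 7.10, 7.17 and 7.17 in DMSO, 7.06, 6.95 and 7.06 with DW71374, 6.92, 6.90 and 6.82 with RVX208, 6.60, 6.64 and 6.61 with DW71177, and 6.50, 6.56 and 6.56 with OTX015. The groups stood in that order with no overlap between neighbours. It fell by 0.60 ± 0.055 with OTX015 (1.52-fold, limma adjusted p = 1.7e-06), by 0.53 with DW71177 (1.44-fold, limma adjusted p = 1.2e-05) and by 0.26 with RVX208 (1.20-fold, limma adjusted p = 0.011), the last not called without RVX208 array 3 (limma adjusted p = 0.052). Its RefSeq window held 1 E-box, in capitals in the 250 bases before the start.
EEF2K, chr16:22206028-22206277, plus strand: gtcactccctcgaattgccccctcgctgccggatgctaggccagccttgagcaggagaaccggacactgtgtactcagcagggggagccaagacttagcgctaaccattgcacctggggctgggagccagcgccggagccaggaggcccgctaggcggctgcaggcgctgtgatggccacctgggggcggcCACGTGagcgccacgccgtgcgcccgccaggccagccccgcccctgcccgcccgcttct

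Of the measured methyltransferases that modify lysines of eEF1A, EEF1AKMT2 and EEF1AKMT3 fell with OTX015 and EEF1AKMT3 also with DW71177. EEF1AKMT2 read 6.55, 6.57 and 6.43 in DMSO, 6.30, 6.32 and 6.51 with DW71374, 6.30, 6.25 and 6.24 with RVX208, 6.01, 6.48 and 6.18 with DW71177, and 5.96, 6.05 and 5.93 with OTX015. Only its DW71177 and DW71374 arrays overlapped the DMSO range. It fell by 0.53 ± 0.099 with OTX015 (1.45-fold, limma adjusted p = 0.00096), and differed by -0.29 with DW71177 (limma adjusted p = 0.055). That difference was called without DW71177 array 2 (limma adjusted p = 0.003) and with quantile normalization, only genes of mean at least 5, a trended variance or array weights (limma adjusted p 0.018 to 0.039). EEF1AKMT3 read 5.80, 5.93 and 5.66 in DMSO, 5.83, 5.89 and 5.96 with DW71374, 5.67, 5.68 and 5.90 with RVX208, 5.53, 5.38 and 5.63 with DW71177, and 5.19, 5.29 and 5.35 with OTX015. OTX015 was lowest, and RVX208 lay within the DMSO range. The fall was 0.52 ± 0.090 with OTX015 (1.43-fold, limma adjusted p = 0.00058) and 0.28 with DW71177 (limma adjusted p = 0.042), the latter not called without DMSO array 1 or 2 or DW71177 array 1 or 2 (limma adjusted p up to 0.17). The DW71177 call was also lost with quantile normalization, centring on medians or array weights. EEF1AKMT1 differed by -0.12 with OTX015 and 0.12 with DW71177 and did not pass. The read-through gene EEF1AKMT4-ECE2 read 4.70, 4.75 and 4.57 in DMSO, 4.57, 4.66 and 4.58 with DW71374, 4.60, 4.50 and 4.50 with RVX208, 4.15, 4.15 and 4.50 with DW71177, and 4.23, 4.10 and 4.19 with OTX015. Both called groups lay below DMSO, at a level where the fold is a lower bound. It fell by 0.50 ± 0.089 with OTX015 (limma adjusted p = 0.00068) and by 0.40 with DW71177 (limma adjusted p = 0.0047).

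The 3 pairs of compounds at 300 nM were compared directly, with p-values adjusted over all genes in each. Between DW71177 and OTX015 the limma fit called 0 of the 34 genes, where 1.26% of all genes were called (1.07% higher and 0.182% lower with DW71177), and 5 had an unadjusted p under 0.05, as did 13.7% of all genes. The count over all genes, 186, was 71 (without DW71177 array 2) to 106 with 1 array left out, except 139 without OTX015 array 2, and 1 on the 6 arrays of both groups alone. All 34 intervals of the difference lay within 0.5 of 0 on the log2 scale, which limits the size of a difference and does not show that the compounds act alike. The 5 genes were EIF4EBP1, EEF1AKMT1, EEF1AKMT2 and EEF1AKMT3, each 0.24 higher with DW71177, and EIF5, 0.13 lower. EIF4EBP1 had the smallest p of the 34 (difference 0.24 ± 0.075, limma adjusted p = 0.14), and its arrays did not overlap between the compounds. It was called when only genes with a mean of at least 5 were tested (limma adjusted p = 0.04), a setting that called 8.8% of those genes, and with a trended variance (limma adjusted p = 0.034). DW71177 against DW71374 called 14 genes, 6 higher and 8 lower with DW71177, where 19.5% of all genes were called (9.98% higher and 9.51% lower). Among genes with a mean of at least 5, 50% of the translation factors and 46.4% of all were called. The count of 14 fell to 9 without DW71177 array 1 or without DW71374 array 2. The share of all genes was 15.5% to 17.5% with any 1 of the 6 arrays left out. OTX015 against DW71374 called 18 genes, 6 higher and 12 lower with OTX015, where 25.2% of all genes were called (11.1% higher and 14% lower). Among genes with a mean of at least 5, the shares were 60% of the translation factors and 56% of all. EIF4EBP1 fell by 0.82 ± 0.075 in this comparison (limma adjusted p = 1.7e-06), EEF1AKMT3 by 0.62 and EEF2K by 0.48. EIF4E passed here with a fall of 0.30 (limma adjusted p = 0.012), but not without OTX015 array 2 (limma adjusted p = 0.059). Further calls against DW71374 were lost without single arrays. With DW71177 these were EIF1B (any of the 6 arrays), EIF2AK1 (any but DW71374 array 3), EIF2D (DW71177 or DW71374 array 1 or 2), EIF5A2 (DW71177 array 1, DW71374 array 2 or 3) and EEF1AKMT4-ECE2 (DW71177 array 1 or 2, DW71374 array 2), with limma adjusted p up to 0.085, 0.16, 0.15, 0.082 and 0.071. With OTX015 they were EEF1G (DW71374 array 1 or 2, OTX015 array 2 or 3), EIF2AK1 (DW71374 or OTX015 array 1 or 2), EIF5A2 (DW71374 or OTX015 array 2 or 3) and EIF6 (DW71374 array 2 or 3, OTX015 array 1), with limma adjusted p up to 0.11, 0.10, 0.12 and 0.11. RVX208 was given at another dose, so its values stand beside the others without a test.

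**Figure D3:**
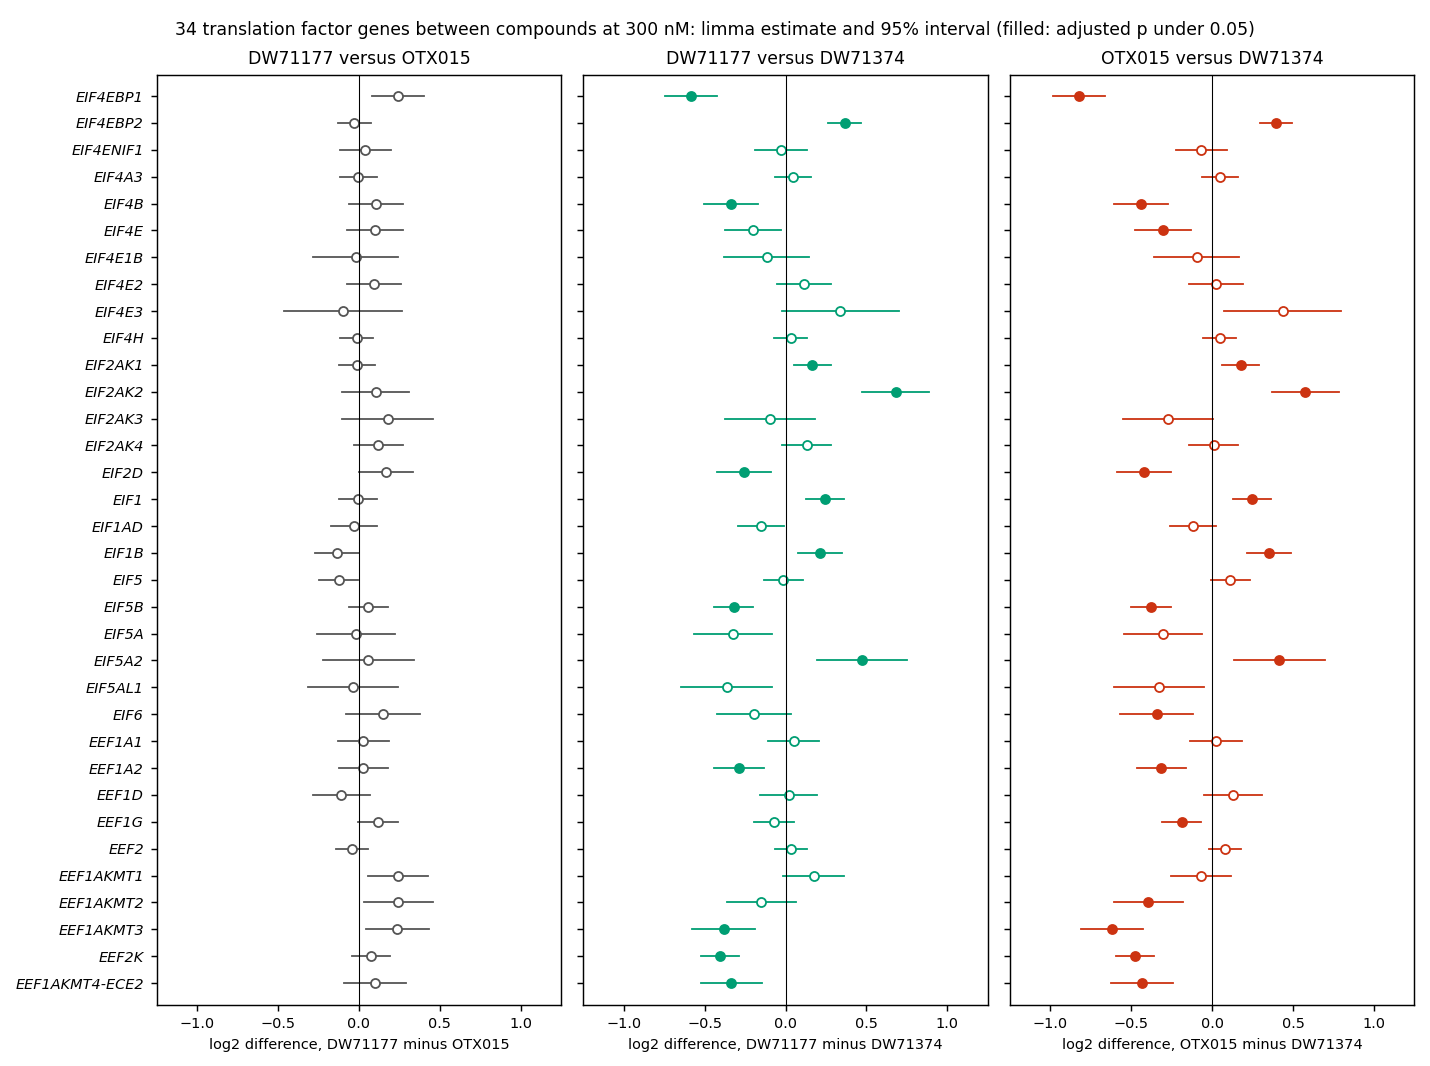
Log2 difference of each of the 34 genes (horizontal axis) between DW71177 and OTX015, DW71177 and DW71374, and OTX015 and DW71374, all at 300 nM, with the limma estimate as a point and its 95% interval as a line; filled points passed an adjusted p of 0.05. The left panel has no filled point and its intervals lie within 0.5 of 0, while 14 and 18 points are filled in the other panels.

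Comparisons that use the same control arrays are not independent, so agreement was counted only between comparisons with no array in common. The calls still came from a fit of all groups together, with the variance of each gene pooled over the groups. A gene with a low pooled variance is more easily called in both comparisons, so shared calls are not fully independent. The count of genes that differed in the same direction does not use this variance. DW71177 against DMSO and OTX015 against DW71374 share no array. Of the 16 and 18 translation factors called in them, 14 were called in both with the same direction. That was 87.5% of the first list and 77.8% of the second, against 81.6% and 64.3% for all genes called. Of the 34 genes, 31 differed in the same direction (91.2%, against 68.4% of all genes). These shares were not taken among genes with a mean of at least 5 alone, so the part of brightness in them was not tested. All 5 genes called with RVX208 against DMSO were called in the same direction in OTX015 against DW71374 (27.8% of its 18) and in DW71177 against DW71374 (35.7% of its 14). Of all 966 genes called with RVX208, 87.8% and 88.5% were. The 5 genes were EEF1A2, EEF2K, EIF2AK2, EIF4EBP1 and EIF4EBP2.

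DW71374 was the compound with the smallest differences. The limma fit called 0 of 34 genes against DMSO, the smallest adjusted p was 0.99, and all 34 intervals lay within 0.5 of 0 on the log2 scale. EEF2K (-0.12) and EIF4EBP1 (-0.17) had an unadjusted p under 0.05, as did 4.63% of all genes, and in both the DW71374 arrays lay below all DMSO arrays. Among the genes called with RVX208, EIF4EBP2 differed by 0.00 with DW71374, EEF1A2 by -0.06 and EIF2AK2 by 0.10.

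Genes around the translation factors were taken in 7 lists, chosen with earlier results of these data known. The counts in each list stand against the shares over all genes. These were 25.7% with OTX015, 19.8% with DW71177 and 6.52% with RVX208. Among genes with a mean of at least 5 they were 56.1%, 48.2% and 23.4%. Signalling from mTOR and the MNK kinases, which act on eIF4E and its inhibitors, had 14 of 21 genes measured. Of these 7 rose and 0 fell with OTX015 (median 0.18), 6 rose and 0 fell with DW71177 (0.17), and 4 rose and 0 fell with RVX208 (0.10). The medians over all genes were between -0.01 and -0.0038. The list holds kinases together with brakes on mTORC1 such as the sestrins, so a count of rises gives no direction for the pathway. MKNK2, a kinase of eIF4E, read 7.24, 7.42 and 7.29 in DMSO and 8.38, 8.46 and 8.49 with OTX015. All RVX208, DW71177 and OTX015 arrays lay above all DMSO arrays, and the rise was 1.13 ± 0.063 with OTX015, 0.67 with DW71177 and 0.50 with RVX208. DW71177 and OTX015 differed on it by -0.46 ± 0.063 (limma adjusted p = 0.0073), which was not called on the 6 arrays of these groups alone (limma adjusted p = 0.28). The sestrin SESN3, a brake on mTORC1, rose by 1.06, 0.95 and 0.47 with OTX015, DW71177 and RVX208. MKNK1, the other MNK kinase, rose by 0.63 and 0.59 with OTX015 and DW71177, and SESN2, another sestrin, by 0.50 and 0.45. With RVX208 MKNK1 differed by 0.27 and SESN2 by 0.35, calls that were lost for MKNK1 whichever of the 6 arrays compared was left out (limma adjusted p up to 0.14) and for SESN2 without DMSO array 1 or RVX208 array 2 (limma adjusted p up to 0.052).

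The enzymes that modify eEF2 and eIF5A, with selenocysteine factors, had 11 of 14 genes measured, of which 1 rose and 4 fell with OTX015 (median -0.21), 1 rose and 2 fell with DW71177, and 1 rose and 0 fell with RVX208. DPH2, an early enzyme of diphthamide synthesis on eEF2, read 7.20, 7.26 and 7.35 in DMSO and 6.35, 6.26 and 6.24 with OTX015. It fell by 0.99 ± 0.068 with OTX015 (limma adjusted p = 1.7e-07) and by 0.74 with DW71177. DPH1, its partner, fell by 0.49 with OTX015, and DOHH, which completes hypusine on eIF5A, by 0.28. With DW71177 DPH1 differed by -0.28, a call lost without DMSO array 1 or 3 or DW71177 array 2 or 3 (limma adjusted p up to 0.10). The other fall with OTX015 was DPH5 (-0.56), named after its value was seen. SECISBP2L, a relative of the selenocysteine factor SECISBP2, rose by 0.83, 0.89 and 0.53 with OTX015, DW71177 and RVX208. Mitochondrial translation factors had 8 of 12 measured, of which 1 rose and 5 fell with OTX015 (median -0.26), and 1 rose and 1 fell with DW71177 and with RVX208. MTFMT, which formylates the mitochondrial initiator tRNA, rose by 0.74, 0.66 and 0.48 with the 3 compounds. MTRFR, a mitochondrial release factor, fell by 0.47 with both OTX015 and DW71177, and GUF1 fell by 0.27 with OTX015. With RVX208 MTRFR differed by -0.36, a call lost without DMSO array 1 or 3 or RVX208 array 3 (limma adjusted p up to 0.067). The other falls with OTX015 were MTRF1 (-0.36) and MTIF2 (-0.26), named after their values were seen. MRRF, the mitochondrial recycling factor, fell by 0.56 with OTX015, but was not called without DMSO array 3 or OTX015 array 3 (limma adjusted p up to 0.060).

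Termination, recycling and rescue had 9 of 12 genes measured, of which 2 rose and 1 fell with OTX015, 1 rose and 2 fell with DW71177, and none passed with RVX208. GSPT1, the release factor eRF3, fell by 0.53 ± 0.061 with OTX015 (limma adjusted p = 1.5e-05) and by 0.38 with DW71177, and GTPBP2, a ribosome rescue factor, rose by 0.30 with both. LTN1, a ubiquitin ligase of stalled ribosomes, differed by 0.18 with OTX015, a call lost without DMSO array 1, 2 or 3 or OTX015 array 3 (limma adjusted p up to 0.084). ZNF598, a sensor of collided ribosomes, differed by -0.29 with DW71177, a call lost without DMSO array 1, 2 or 3 or DW71177 array 1 or 2 (limma adjusted p up to 0.16). Poly(A)-binding proteins and their partners had 4 of 12 measured, of which 1 rose and 1 fell with OTX015, 2 rose with DW71177 and 1 with RVX208. CPEB4, which binds elements that control poly(A) tail length, read 4.38, 4.44 and 4.49 in DMSO and 5.59, 5.55 and 5.64 with OTX015. It rose by 1.15 ± 0.087 with OTX015 and by 0.47 with RVX208, and also with DW71177 (limma adjusted p = 2.9e-06), from a level where the fold is a lower bound. PAIP1, which binds poly(A)-binding protein, differed by -0.32 with OTX015, a call lost without DMSO array 3 or OTX015 array 1 (limma adjusted p up to 0.071). PAIP2B, an inhibitor of that protein, differed by 0.68 with DW71177, a call lost without DMSO array 1 or 2 or DW71177 array 1 or 3 (limma adjusted p up to 0.10). Other initiation helpers had 11 of 15 measured, of which 2 rose and 3 fell with OTX015, and 2 rose and 1 fell with DW71177 and with RVX208. BZW2, a regulator of start codon choice that resembles eIF5, fell by 0.58 ± 0.055 with OTX015 and by 0.44 with DW71177. IMPACT, an inhibitor of GCN2, rose by 0.33 and 0.29 with these compounds, and CYFIP1, a partner of eIF4E, by 0.31 and 0.30. The RNA helicase DHX9 differed by -0.22 with OTX015, a call lost without OTX015 array 1 (limma adjusted p = 0.052), and the other fall was GCN1 (-0.23), named after its value was seen. With RVX208 BZW2 differed by -0.21, IMPACT by 0.30 and CYFIP1 by 0.23. These calls were lost for BZW2 and CYFIP1 whichever of the 6 arrays compared was left out (limma adjusted p up to 0.12 and 0.099), and for IMPACT without DMSO array 1 or RVX208 array 1 or 2 (limma adjusted p up to 0.078).

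The integrated stress response, which phosphorylated eIF2 sets off, had 5 of 14 genes measured. With OTX015 1 rose and 1 fell, and with DW71177 and RVX208 0 rose and 1 fell. ATF4, its central transcription factor, fell by 0.33 ± 0.072 with DW71177 (limma adjusted p = 0.0046). With OTX015 it differed by -0.22 (limma adjusted p = 0.040) and with RVX208 by -0.26 (limma adjusted p = 0.049). Both of these calls were lost without DMSO array 1, 2 or 3. The OTX015 call was also lost without OTX015 array 1, 2 or 3 (limma adjusted p up to 0.12), and the RVX208 call without RVX208 array 2 or 3 (limma adjusted p up to 0.15). ATF5 rose by 0.52 ± 0.073 with OTX015 and differed by 0.08 with DW71177, and the difference between these compounds was -0.43 (limma adjusted p = 0.014), not called on the 6 arrays of these groups alone (limma adjusted p = 0.28) or without DW71177 array 2 (limma adjusted p = 0.054). ASNS and DDIT3, known targets of ATF4, did not pass with any compound. DDIT3 had a mean of 3.38 over the 15 arrays, under the array medians, a level at which a change can be missed. With DW71374 none of the genes in any of the 7 lists was called (0 of all genes).

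**Figure D4:**
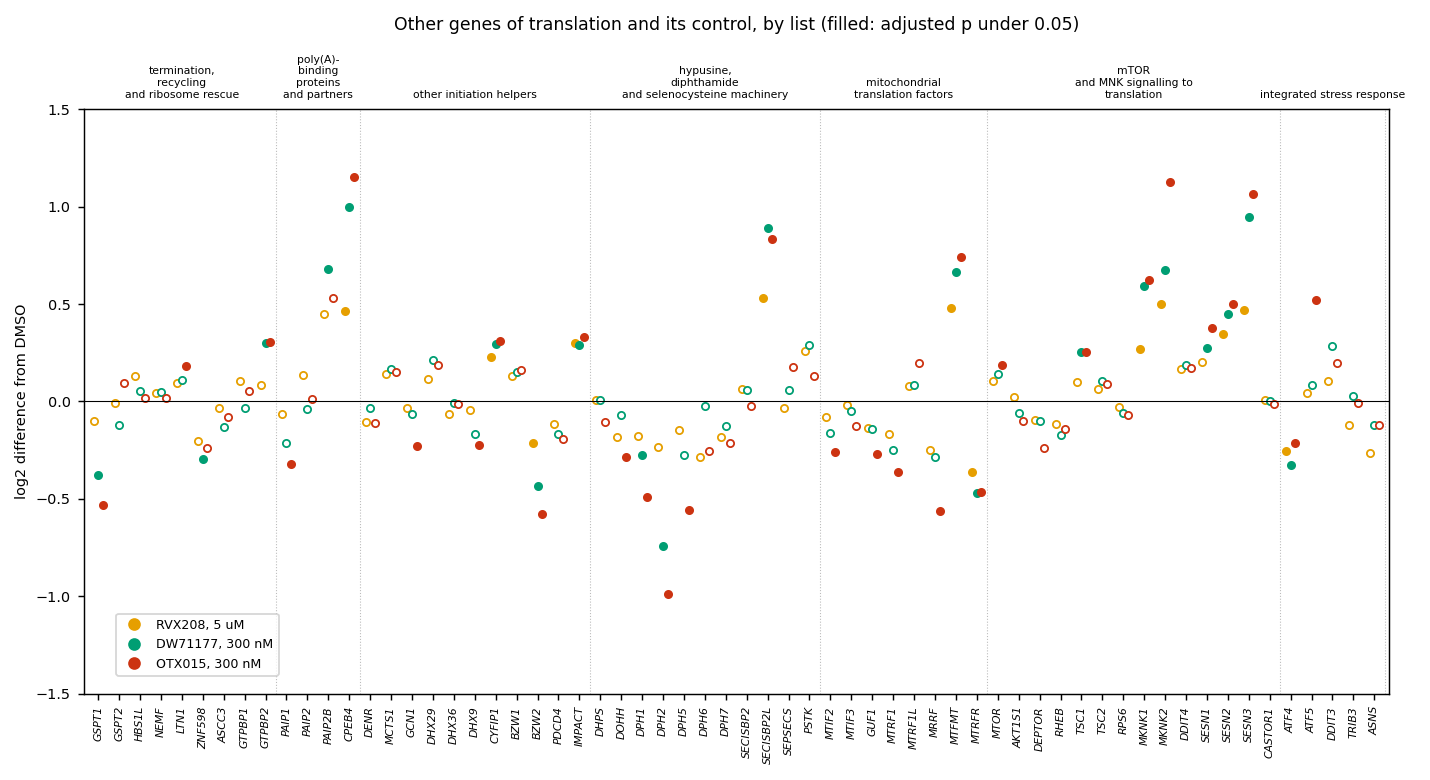
Log2 difference from DMSO (vertical axis) of each measured gene of the 7 lists (horizontal axis, dotted lines part the lists) for RVX208, DW71177 and OTX015; filled points passed an adjusted p of 0.05. CPEB4, MKNK2 and SESN3 stand highest with OTX015 at 1.15, 1.13 and 1.06, and DPH2 lowest at -0.99.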

How the data were processed

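Total RNA of MV4-11 cells was hybridised to 15 whole-transcript arrays, 1 per sample, per the labels' protocols, and the sample titles gave each array's group and replicate number. The deposited table holds log2 signals for 44629 features, made by the authors, its scale inferred from the values. The sources used here do not name a background correction, a normalization or software. Array medians are nearly equal, from which a normalization between arrays is inferred, and differences would then be relative to the whole array. The number of arrays limits the precision.

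Of these features, the platform annotation gives 1 gene for 15835, several for 0 and none for 28794. All 15835 matched RefSeq by gene ID. For 651 genes with several features the one of highest mean over the 15 arrays was used, which left 14812 genes, 11911 of them protein-coding, with no level filter. In 29 to 62 genes per group the 3 arrays held the same deposited value, and no translation factor was among them. Across groups, some translation factors did repeat a value. EEF1D held 5.1405 in arrays of DMSO, DW71177, DW71374 and RVX208. EIF4E1B held 5.0517 in arrays of DW71177 and DW71374, and EEF1AKMT4-ECE2 held 4.5002 in arrays of DW71177 and RVX208. The source of such values was not tested, and the spread of these genes can be too small.

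The lmFit and eBayes functions of limma 3.58.1 (R 4.3.3), tested on simulated data, fitted the 5 group means at once with 10 residual degrees of freedom, for 7 comparisons, with two-sided p-values adjusted over 14812 genes and called under 0.05. Alternatives were quantile normalization, centring on medians, genes with a mean of at least 5, means of all features, trended robust variance, array weights, a replicate block, 2-group fits and leaving out each array.

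Every member may be named. Array values are given for up to 8 called genes of smallest p in each direction with OTX015, and up to 3 more each way with DW71177 and with RVX208. Of each pathway list up to 4 genes of smallest p with OTX015 are named. Members, lists and rule were chosen with earlier results of these data known. Promoter windows and gene starts came from RefSeq GRCh38.p14 and were searched for motifs with Python 3.11.15.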

Additional observations from a re-analysis of the deposited data

How the results depend on the processing

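No called difference changed direction under any alternative. With OTX015, 14 of the 20 genes were called under every alternative run, with DW71177 8 of 16, and with RVX208 2 of 5 (EEF1A2 and EIF4EBP1). With the arrays of both groups alone, the counts against DMSO were 16 for OTX015, 10 for DW71177 and 2 for RVX208. For DW71177 against DW71374 the count was 9. Of all genes, 21.6%, 15%, 4.11% and 14.4% were called in these fits. Calls lost against DMSO were EEF1G, EIF1, EIF1AD and EIF2AK1 with OTX015, and EEF2K, EIF2AK2 and EIF4EBP2 with RVX208. With DW71177 they were EEF1AKMT3, EEF1AKMT4-ECE2, EIF1, EIF1B, EIF2AK1 and EIF6. RVX208 called 10 with only genes of mean at least 5 and 10 with a trended robust variance, adding EIF2AK1, EIF4B, EIF5A, EIF5A2 and EIF5B in each, and DW71177 against OTX015 called 1 (EIF4EBP1) under each of these. Leaving out 1 array gave 16 to 18 for OTX015, 11 to 13 for DW71177, 3 to 5 for RVX208 (3 without RVX208 array 3) and 0 for DW71374, against DMSO. The shares of all genes were then 22.3% to 23.9%, 16.6% to 18.3%, 3.81% to 4.29% and 0%. For the pairs, leaving out 1 array gave 0 for DW71177 against OTX015, 9 to 14 for DW71177 against DW71374 and 14 to 18 for OTX015 against DW71374. The shares of all genes there were 0.479% to 0.938%, 15.5% to 17.5% and 21.6% to 23.3%. Over all genes, DW71177 against OTX015 called 186, but 593 with only genes of mean at least 5, 497 with a trended robust variance, 118 with array weights, 107 with a replicate block and 1 on its 6 arrays. RVX208 against DMSO called 966, but 1576, 1485 and 609 under the first, second and last of these. Deviations of same-numbered arrays of DMSO and each compound correlated at -0.0201 to 0.0551 across genes, so the replicate numbers showed no pairing with DMSO. Pairs of compound groups were not checked in this way. With a replicate block the counts were 20, 14, 5 and 0 for OTX015, DW71177, RVX208 and DW71374 against DMSO, and 0, 13 and 18 for the 3 pairs. EIF1B and EIF6 then missed the threshold with DW71177 against DMSO, and EIF2AK1 against DW71374. DW71177 against DW71374 also lost EIF2D with quantile normalization, EIF1B with a trended variance and EIF2AK1 with centring on medians. The causes of these shifts were not tested. Probe brightness limits EIF4E3, EIF5AL1, EEF1AKMT1 and EEF1AKMT4-ECE2.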
